A study of Caenorhabditis elegans with 2 samples.

Results

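Neuropeptide and neurosecretion genes were read against the binding of PQM-1 in the nematode Caenorhabditis elegans. The members are the protein-coding genes whose symbols start with flp-, nlp- or pdf-, 3 name classes that hold neuropeptide precursors. Added to these are 11 genes that process peptides or release vesicles (egl-3, egl-21, unc-31, ida-1, unc-13, unc-18, unc-64, snb-1, snt-1, ric-4 and rab-3). The rule found 115 genes of the 19973 protein-coding genes on the 6 nuclear chromosomes: the 31 flp, 71 nlp and 2 pdf genes, together called peptide precursors, and the 11 processing and release genes. They were chosen by name, not by any binding value. Chromatin immunoprecipitation and sequencing had mapped tagged PQM-1, a zinc finger transcription factor, in whole L3 larvae of mixed sex. All worms came from OP201, a strain with the unc-119(tm4063) III allele and the insertion wgIs201, which holds pqm-1 fused to eGFP, so what was mapped is the tagged protein. The design had 1 group of 2 biological replicates and no second genotype or condition, so every comparison is between genes of the same worms. Peaks came from whole animals, in which a site bound in few cells and an unbound site cannot be told apart.

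Neuropeptides are cut from larger precursor proteins, packed into dense core vesicles and released when the vesicles fuse with the cell membrane. EGL-3, a proprotein convertase, cuts the precursors, and EGL-21, a carboxypeptidase E, trims the cut ends. UNC-31 (CAPS) and the SNARE proteins then drive release, most of it from neurons, although the intestine and the epidermis also release peptides of the nlp class. PQM-1 is known for activity in the intestine, where GATA factors bind the core letters GATAA, and the letters TGATAAG were reported for genes it regulates.

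Among the 115 genes, egl-21 and snb-1 were the members with a summit of the authors' optimal list in the promoter, a window that starts 1000 bp before the 5' end of a gene and stops 250 bp after it. The optimal list holds the 5560 strongest of 30000 peaks called on both replicates together. The sequences of the 101 bases around these summits (WBcel235, the same assembly as ce11) are shown because they are the whole set of bound member promoters. Each reads 5′ to 3′ on the strand of the gene, and capitals mark TGATAAG, or GATAA outside it, in either orientation.
egl-21 (chrIV:10482740-10482840, minus strand): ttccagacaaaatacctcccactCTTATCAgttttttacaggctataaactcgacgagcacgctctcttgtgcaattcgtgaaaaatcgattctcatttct
snb-1 (chrV:6656812-6656912, minus strand): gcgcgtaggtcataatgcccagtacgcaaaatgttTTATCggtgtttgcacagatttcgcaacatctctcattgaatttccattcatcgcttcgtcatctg

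The egl-21 window held TGATAAG against the direction of the gene, and the snb-1 window held GATAA without the flanking letters. Of all 5560 optimal summits, 23.9% had TGATAAG within 50 bp on either strand and 55.4% had GATAA.

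Of the 115 members, 2 (1.74%) had an optimal summit in the promoter, with an exact binomial (Clopper-Pearson) 95% interval of 0.211 to 6.14%. Over all protein-coding genes the share was 16.3%, or 3260 of 19973. No peptide precursor was among them: 0 of 31 flp genes (interval to 11.2%), 0 of 71 nlp genes (interval to 5.06%) and 0 of 2 pdf genes. Over the 3 classes together the interval reached 3.48%. The processing and release genes gave 2 of 11, or 18.2%, with an interval of 2.28 to 51.8% that holds the share of all genes. Intervals cover counting error only, and neighbouring genes can share a summit.

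**Figure D1:**
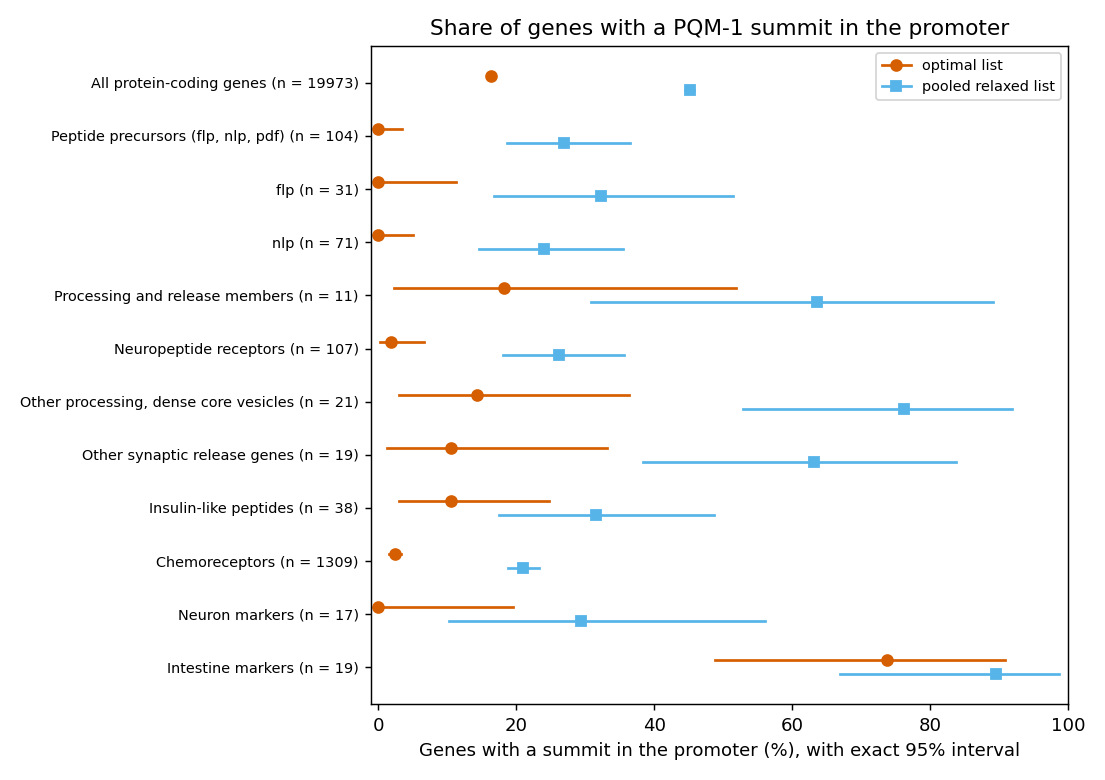
Share of genes with a PQM-1 summit in the promoter (%), for the optimal list (circles) and the pooled relaxed list (squares), with lines for the exact 95% interval and the number of genes in each group. The peptide precursors sat at 0% in the optimal list and at 26.9% in the pooled relaxed list, against 16.3% and 45.1% of all protein-coding genes.

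The strongest member peak lay near egl-21. Its signal, the authors' score for a peak, was 173.8 in the pooled list, where it ranked 55. Replicate 1 listed 123.2 there at rank 78, and replicate 2 listed 55.2 at rank 32. Signals of different lists are not on a shared scale, so only the ranks within each list are read: the peak was near the top of all 3 lists. The summit lay 946 bp upstream of the egl-21 5' end, inside the coding sequence of the next gene upstream, F01D4.5, and 867 bp downstream of the 5' end of that gene. A further optimal peak of signal 58.9 lay 2103 bp upstream of egl-21, in an intergenic stretch where the 5' end of ced-5, an engulfment gene, was nearer at 163 bp. So no optimal summit of egl-21 had egl-21 as its nearest 5' end.

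snb-1 encodes synaptobrevin, the vesicle SNARE. Its promoter summit, at 361 bp upstream, had a signal of 46.0 and ranked 2550 in the pooled list. Replicate 1 listed 28.3 at rank 3383 and replicate 2 listed 18.3 at rank 1485. The summit was intergenic, and snb-1 had the nearest 5' end, with syx-18 the next at 1413 bp.

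The other processing and release genes had weak promoter peaks or none. A relaxed list, from which the authors took the optimal peaks, also holds many peaks below the threshold, with pooled signals from 4.06 up, against 23.8 for the weakest optimal peak. Each list's promoter value below is that of its own strongest peak there, so a gene's values need not come from 1 site. unc-18, a Munc18 protein that binds syntaxin, had a pooled signal of 17.6 in the promoter, with 8.38 in replicate 1 and 7.25 in replicate 2. snt-1, a synaptotagmin, had 12.8, with 2.13 in replicate 1 and 10.05 in replicate 2. Both genes sat below the optimal threshold in the pooled list, and both replicates listed a summit in each promoter. The strongest unc-18 summits lay 564, 751 and 711 bp upstream in the pooled, replicate 1 and replicate 2 lists. The snt-1 peak ranked 25170 in replicate 1 and 3868 in replicate 2.

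unc-13, which prepares vesicles for fusion, had a pooled signal of 7.24, with 2.59 and 3.54 in the replicates. ida-1, an IA-2-like protein of dense core vesicles, had 4.56, with 7.14 and 4.88. These ida-1 summits lay apart, at 445 bp upstream (pooled), 146 bp upstream (replicate 1) and 222 bp downstream (replicate 2). unc-31 had 5.96 and no promoter peak in either replicate list. The genes egl-3, unc-64 (syntaxin), ric-4 (the SNAP-25 protein) and rab-3 (a vesicle GTPase) had no promoter summit in any of the 4 lists. In all, 7 of the 11 genes had a pooled relaxed promoter summit, or 63.6% with an interval of 30.8 to 89.1%, which holds the 45.1% of all genes.

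The relaxed lists gave the same order at a lower threshold. A pooled relaxed summit lay in the promoter of 35 members (30.4%, interval 22.2 to 39.7%), against 45.1% of all genes. A pooled summit without an optimal one lay at 33 members (28.7%), against 28.8% of all genes, a share near the background. Counted over the genes without an optimal promoter summit, it was 29.2% of 113 members and 34.4% of 16713 genes. Replicate 1 had a promoter summit at 26 members (22.6%), against 41.3% of all genes, and replicate 2 at 30 (26.1%), against 41.7%. Both replicates had one at 13 members (11.3%), against 26.8%. At 64 members (55.7%) none of the 3 relaxed lists had a promoter summit, against 40.6% of all genes.

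Many members with a pooled promoter summit did not have one in both replicates. Of these 35 members, 12 had a promoter summit in both replicates, 9 in replicate 1 alone, 6 in replicate 2 alone and 8 in neither. The same split over all genes is not given here, so it is not read as a trait of the members. Over all genes, 45.1% had a pooled promoter summit and 26.8% had a promoter summit in both replicates. The median signal of the strongest pooled promoter peak was 7.22 over these 35 members and 14.5 over the 9013 genes that had one. Among the 33 without an optimal summit, signals ran from 4.15 through a median of 7.08 to 23.0, and the median over the 5753 such genes was 8.16. A signal of 10 or more was found at 7 of these 33 members (21.2%) and at 38.7% of these genes.

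**Figure D2:**
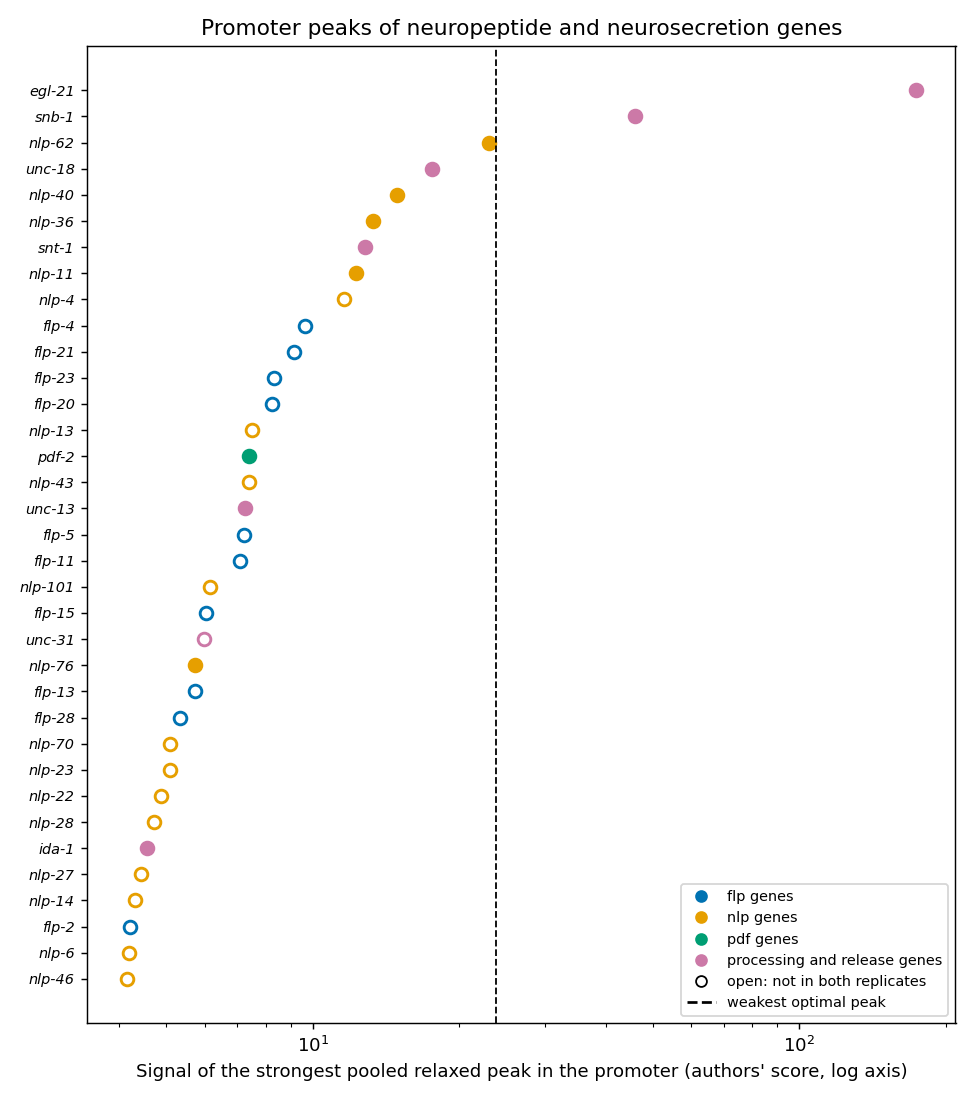
Signal of the strongest pooled relaxed peak in the promoter (authors' score, log axis) for the 35 members that had one, coloured by class, with open circles for members that did not have a promoter summit in both replicates and a dashed line at the weakest optimal peak. egl-21 at 173.8 and snb-1 at 46.0 lay right of the line, and nlp-62 at 23.0 lay just left of it.

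The flp genes encode FMRFamide-like peptides. A pooled promoter summit was listed for 10 of 31 (32.3%, interval 16.7 to 51.4%, which holds the 45.1% of all genes). Its signals ran from 4.20 to 9.63, all below 10. Of these 10, replicate 1 had a summit at 8 and replicate 2 at 1. Of all 31 flp genes, replicate 1 had a promoter summit at 9, with an interval that holds the 41.3% of all genes. Replicate 2 had one at 4 (12.9%, interval 3.63 to 29.8%), against 41.7% of all genes. None of the 31 flp genes had a promoter summit in both replicates (interval to 11.2%), against 26.8% of all genes. The strongest pooled peaks were at flp-4 (pooled signal 9.63, replicate 1 signal 5.19), flp-21 (9.13 and 7.85) and flp-23 (8.33 and 7.28). Replicate 2 listed no promoter peak for these 3 genes. The flp-21 summit lay 347 bp upstream in the pooled list and 453 bp upstream in replicate 1. flp-1 and flp-18 had no promoter summit in any list. The nearest optimal summit lay 2422 bp downstream of the flp-1 5' end, where the 5' end of rpb-12, an RNA polymerase subunit gene, was nearer, and 13153 bp upstream of flp-18.

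The nlp class holds other neuropeptide-like precursors. A pooled promoter summit was listed for 17 of 71 (23.9%, against 45.1% of all genes), at signals of 4.15 to 23.0, and 12 of these were below 10. nlp-62 stood highest at 23.0, rank 5734, with 12.5 in replicate 1 and 10.3 in replicate 2, and fell just under the weakest optimal signal. nlp-40 came next at 14.9. nlp-36 had 13.3 (8.06 and 7.20 in the replicates) and nlp-11 had 12.3 (4.46 and 3.13). The nlp-11 summits lay 390, 393 and 230 bp upstream in the pooled, replicate 1 and replicate 2 lists. nlp-4 had 11.6, with 13.8 in replicate 1 and no promoter peak in replicate 2. The pdf genes encode pigment dispersing factors, which set locomotor states. pdf-2 had a pooled signal of 7.39, with 2.70 and 5.68 in the replicates, and pdf-1 had a summit in replicate 2 alone, at 3.07. The pdf-2 summits lay 112 bp upstream (pooled), 153 bp upstream (replicate 1) and 4 bp downstream (replicate 2).

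nlp-40 encodes a peptide that the intestine releases to time the defecation program. Its promoter had a pooled signal of 14.9, with 7.77 in replicate 1 and 5.80 in replicate 2. The summits lay 196, 322 and 154 bp upstream in the pooled, replicate 1 and replicate 2 lists. nlp-40 was the member with an optimal summit inside the gene and outside the promoter: 1 of 115 (0.870%, interval 0.0220 to 4.75%), against 6.06% of all genes. Members are shorter, with a median gene length of 1070 bp against 2027 bp for all genes, and the part of length was not tested. The nlp-40 summit was in an intron, 3975 bp past the 5' end. It had a pooled signal of 28.02 and 32.8 in replicate 1, and replicate 2 had no peak there. Past the 3' end, 5509 bp from the 5' end, nlp-40 had another optimal peak of 46.3, which overlapped a peak of 39.9 in replicate 1 and of 9.47 in replicate 2. An optimal summit within 1000 bp past the 3' end was present at 6 members (5.22%), against 6.85% of all genes.

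The nlp-24 to nlp-34 genes include nlp-29 and nlp-31, which encode antimicrobial peptides of the epidermis. Of these 11 genes, 0 had an optimal promoter summit, with an interval to 28.5% that holds the 16.3% of all genes. The 6 genes nlp-34, nlp-31, nlp-30, nlp-29, nlp-28 and nlp-27 lie together within 10946 bp (chrV:3978825-3989770). Within 1000 bp of this run there were 0 optimal, 2 pooled, 0 replicate 1 and 2 replicate 2 summits. The pooled summits were weak, at 4.44 for nlp-27 and 4.71 for nlp-28. The nearest optimal summit lay 13826 bp from nlp-29 and 9456 bp from nlp-31. nlp-12, a cholecystokinin-like peptide, also had no promoter summit in any list, and its nearest optimal summit, 1295 bp upstream, was nearer to the 5' end of emr-1 (emerin).

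Beyond the promoter window and up to 5000 bp upstream, 16 members (13.9%) had an optimal summit, against 20.2% of all genes. There were 18 such summits. For 6 of them no other protein-coding 5' end was nearer, which gave 6 members (5.22%), against 4.38% of all genes. The other 12 were nearer to another gene, and 8 of these lay within 500 bp upstream of it. In the 500 bp just upstream of the 5' end, members had 1 optimal summit, or 0.870 per 100 genes, and all genes had 11.7 per 100. From 1000 to 1500 bp upstream, members had 7 summits, or 6.09 per 100 genes, and all genes had 3.59. That bin was 1 of several, its count is small and no interval was computed. Its nlp-12 and nlp-64 summits were nearer to the 5' ends of emr-1 and M02E1.4.

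**Figure D3:**
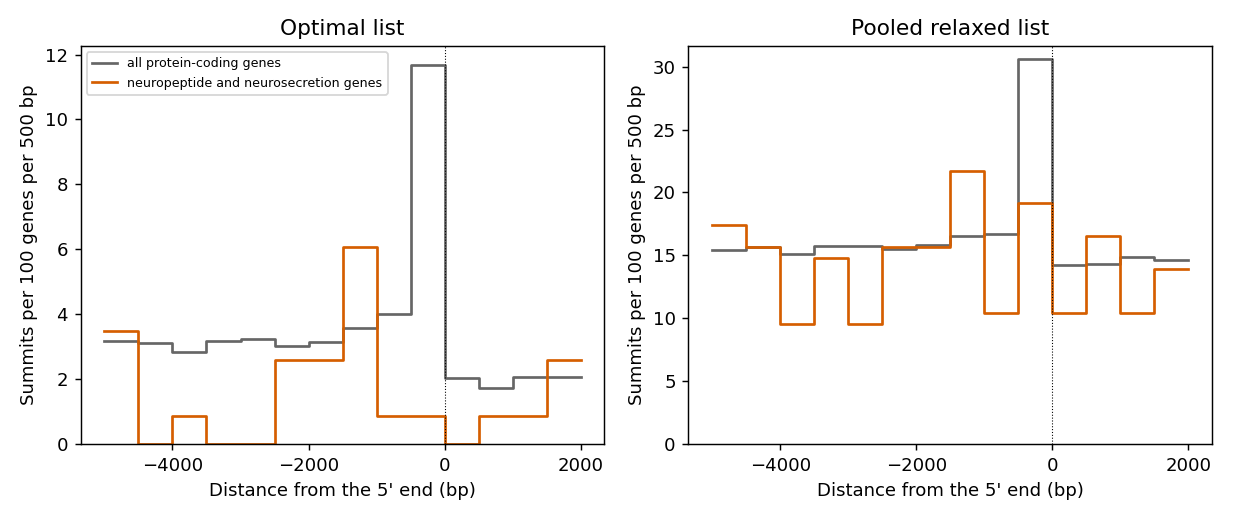
Summits per 100 genes in bins of 500 bp, by distance from the 5' end (bp, upstream negative), for the optimal list (left) and the pooled relaxed list (right), with the 115 members in orange and all protein-coding genes in grey. In the bin just upstream of the 5' end members had 0.870 optimal and 19.1 pooled summits per 100 genes, and all genes had 11.7 and 30.6.

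The upstream peaks nearest to a member were at nlp-36, nlp-24, nlp-62, nlp-76, nlp-19 and unc-64. The 101 bases around the 5 of these summits below are shown as the distal sites with a member as the nearest gene, written as for egl-21 and snb-1 and in the order of the text that follows.
nlp-36 (chrIII:9487610-9487710, plus strand): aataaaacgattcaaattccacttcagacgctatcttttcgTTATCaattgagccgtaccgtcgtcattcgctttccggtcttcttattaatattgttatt
nlp-24 (chrV:11614928-11615028, plus strand): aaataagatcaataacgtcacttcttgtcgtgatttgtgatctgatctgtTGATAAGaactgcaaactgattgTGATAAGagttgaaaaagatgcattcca
unc-64 (chrIII:13275901-13276001, plus strand): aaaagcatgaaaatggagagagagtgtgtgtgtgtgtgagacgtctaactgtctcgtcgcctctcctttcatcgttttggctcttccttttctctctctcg
nlp-76 (chrX:12665088-12665188, minus strand): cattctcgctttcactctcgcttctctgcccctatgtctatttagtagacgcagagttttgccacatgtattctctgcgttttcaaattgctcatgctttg
nlp-19 (chrX:10957463-10957563, plus strand): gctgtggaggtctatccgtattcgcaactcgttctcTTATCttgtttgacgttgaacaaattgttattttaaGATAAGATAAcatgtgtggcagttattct

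nlp-36 had the strongest of them, 1071 bp upstream of the 5' end, just outside the promoter window. Its signal was 89.4 at rank 698, with 54.4 at rank 1142 in replicate 1 and 34.6 at rank 246 in replicate 2. The window held GATAA once. The nlp-24 peak, at 1398 bp upstream, had a signal of 36.4, with 19.7 in replicate 1 and 13.1 in replicate 2, and its window held TGATAAG 2 times along the gene. The unc-64 peak, at 1307 bp upstream of the syntaxin gene, had 45.5, with 32.9 and 9.78, and its window held no GATAA.

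The nlp-76 peak, 1235 bp upstream, had a signal of 52.8, with 47.9 and 12.4 in the replicates, and lay in an intron of nhr-17, a nuclear hormone receptor gene, with no GATAA in its window. The nlp-19 peak, 1214 bp upstream in an intron of pbo-4, had 34.6, with 31.5 at rank 2919 in replicate 1 and 3.37 at rank 22409 in replicate 2. The nlp-62 peak, 1702 bp upstream, had 37.2, with 33.6 and 7.10. All 6 overlapped a peak in both replicates, and the nlp-19 peak was weak in replicate 2.

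Among the 12 upstream summits with another gene nearer, the strongest was 3937 bp from nlp-80, with a signal of 163.0 at rank 75, and lay 192 bp upstream of T04C12.8. Others lay 183 bp upstream of ttr-46 (signal 54.7, near nlp-58), 444 bp upstream of aqp-11, an aquaporin gene (56.1, near flp-15), and 153 bp upstream of exos-2 (31.9, near nlp-71). Downstream, the peak 1588 bp past the nlp-1 5' end (signal 126.5) was the promoter peak of aex-4. The peak 1037 bp past the nlp-57 5' end (40.5) lay 191 bp upstream of hizr-1, a zinc-sensing nuclear receptor gene. Of the 20 optimal summits in promoters or upstream of members, 19 overlapped a peak in both replicates. The exception was the one near nlp-71, which had none in replicate 2. Of all 5560 optimal peaks, 5192 overlapped both replicates, so this is not read as a trait of the members. TGATAAG lay within 50 bp of 4 of the 20 (near egl-21, nlp-24, nlp-58 and nlp-80), and GATAA of 15. Over all optimal summits the shares were 23.9% and 55.4%, and no interval was computed for the 20.

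**Figure D4:**
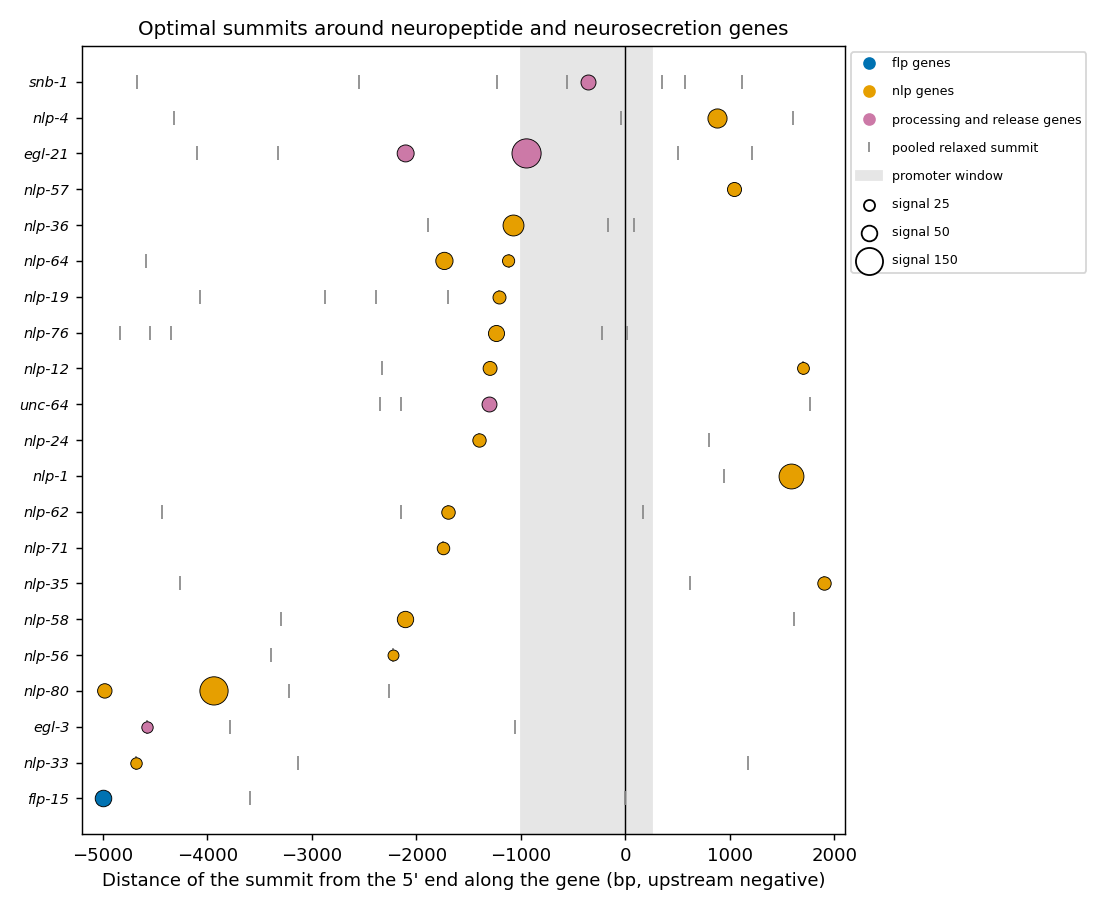
Optimal summits (circles, area by signal) and pooled relaxed summits (grey ticks) between 5000 bp before and 2000 bp after the 5' end (bp along the gene), for the 21 members with an optimal summit in that range, with the promoter window shaded. The circles of egl-21 and snb-1 lie in the shaded window, and those of nlp-36, nlp-64, nlp-19, nlp-76, nlp-12, unc-64 and nlp-24 lie just upstream of it.

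Members stood farther from optimal peaks than all genes and had longer gaps before them. The median distance from the 5' end to the nearest optimal summit was 11054 bp (quartiles 5020 and 19023), against 7042 bp (2122 and 16569) for all genes. By class the medians were 9504 bp for flp, 11381 bp for nlp and 8584 bp for the processing and release genes. The gap to the next gene upstream had a median of 3257 bp for members and 937 bp for all genes. In genes with a gap over 1000 bp, 1 of 91 members had an optimal promoter summit, against 14.5% of all such genes. With a gap up to 1000 bp it was 1 of 24, against 18%. The members' shares, 1.10% and 4.17%, rest on 1 bound gene each and have no interval, and the part of the gap was not tested.

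Other gene properties moved with membership too. Members were on X in 29.6% of cases and all genes in 13.7%, and on X 0 of 34 members had an optimal promoter summit, against 17.2% of all X genes. Where the upstream neighbour was on the other strand, at any gap or overlapping the gene, 0 of 50 members were bound, against 20.4% of all such genes. With another arrangement it was 2 of 65 (3.08%), against 12.8%. Promoter GC content had a median of 35.9% for members and 35% for all genes. The part of these properties in the member counts was not tested.

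The letters TGATAAG, searched on both strands of the promoter window, were found at 16 members (13.9%, interval 8.17 to 21.6%), against 24.2% of all promoters. For flp genes it was 1 of 31 (3.23%), for nlp genes 12 of 71 (16.9%). AGATAA, the GATAA core after another first letter, was also searched on both strands and was found at 59 members (51.3%), against 56.8% of all genes. GTAAACA, a forkhead motif, was found at 14 (12.2%), against 15.5%. Among all genes, 27.9% of promoters with TGATAAG had an optimal summit, against 12.6% of those without it. Among members it was 1 of 16 (6.25%, egl-21) with it and 1 of 99 (1.01%) without it.

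The members' TGATAAG places are shown for 6 promoters as the sites where the letters were present and no optimal peak was. Each line has 12 bases on either side of the motif, which is in capitals, read 5′ to 3′ on the strand of the gene.
nlp-31 (chrV:3979993-3980023, plus strand): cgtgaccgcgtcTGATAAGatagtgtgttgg
pdf-1 (chrIII:6912626-6912656, minus strand): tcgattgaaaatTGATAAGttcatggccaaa
nlp-26 (chrV:19613290-19613320, plus strand): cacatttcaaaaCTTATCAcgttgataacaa
nlp-27 (chrV:3989291-3989321, plus strand): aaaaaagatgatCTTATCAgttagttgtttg
flp-19 (chrX:10604003-10604033, plus strand): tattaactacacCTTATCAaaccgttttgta
egl-3 (chrV:10174349-10174379, minus strand): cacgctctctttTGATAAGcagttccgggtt

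The nlp-31 place lay 47 bp upstream of its 5' end, 9409 bp from the nearest optimal summit and 2886 bp from the nearest pooled one, and the same bases lie 874 bp upstream of the divergent gene nlp-34. The pdf-1 place was 160 bp upstream, 8855 bp from an optimal summit and 207 bp from a replicate 2 summit. The nlp-27 place was 72 bp upstream, with a pooled summit at 288 bp, and the nlp-26 place was 156 bp upstream, with none nearer than 4885 bp. At flp-19 (668 bp upstream) and egl-3 (611 bp upstream) the nearest pooled summits were 1175 and 447 bp away. Of the 17 places in member promoters, 1 (5.88%) had an optimal summit within 100 bp and 2 (11.8%) a pooled one, namely egl-21 and nlp-62. Over the 5971 places in all promoters the shares were 20.1% and 33.1%.

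Genes that act with the members were read from lists of other pathway genes. Of 107 neuropeptide receptor genes, 2 (1.87%, interval 0.227 to 6.59%) had an optimal promoter summit: trhr-1, a receptor of the thyrotropin-releasing hormone type (signal 77.6), and npr-30 (25.7). Of 21 other genes of peptide processing and dense core vesicles, 3 (14.3%, interval 3.05 to 36.3%) had one. These were aex-4, an intestinal t-SNARE of the defecation program (126.5), sbt-1, the 7B2-type chaperone of EGL-3 (55.5), and unc-108, a Rab2 GTPase (24.1). Of 19 other synaptic release genes, 2 (10.5%) had one: nsf-1 (50.3) and syd-2, a liprin (24.3). As at the members, receptors had a low share in the optimal list and the processing and release genes had intervals that held the 16.3% of all genes. In the pooled relaxed list, receptors gave 26.2% and the other synaptic release genes 63.2% (interval 38.4 to 83.7%), against 45.1%. The 21 processing and dense core vesicle genes gave 76.2% there (interval 52.8 to 91.8%), above 45.1%. Their share was 85.7% in replicate 1 (against 41.3%) and 42.9% in replicate 2 (against 41.7%).

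Secreted insulin-like peptides gave 4 of 38 (10.5%, interval 2.94 to 24.8%), led by ins-12 at 119.8. Chemoreceptors, which are mostly neuronal, gave 31 of 1309 (2.37%, interval 1.61 to 3.34%). Neuron markers gave 0 of 17 (interval to 19.5%), and intestine markers 14 of 19 (73.7%, interval 48.8 to 90.9%), with act-5 (152.6), lys-8 (136.0) and elt-2 (128.0) the strongest. Of genes with a pooled relaxed promoter summit, the share with an optimal one was 5.71% for members (2 of 35), 33.3% for insulin-like peptides (4 of 12), 11.3% for chemoreceptors (31 of 275) and 36.2% for all genes. The depth behind these counts is unknown, since the deposited peaks come without reads.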

How the data were processed

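The data are peak lists from PQM-1 chromatin immunoprecipitation of 2 biological replicates, with DNA fragments between 150 and 350 bp long, per the labels. The authors deposited relaxed lists per replicate and for both together, and an optimal list cut by the irreproducible discovery rate, which measures how well replicate ranks match. The aligner, the caller and the cut-off were not given in the sources used here. Each peak's signal is a score deposited by the authors with no stated scale, used only within a list, and the summit offset in bp was also deposited by the authors. Depth is unknown, since peak lists hold no reads, and the control library was not used here. Lists on ce10 were not used here.

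Summits were placed on WBcel235 (ce11) genes of Ensembl 115. A gene was bound where an optimal summit lay in the promoter. Shares have exact binomial (Clopper-Pearson) 95% intervals and no test was run over members. Members, lists and named genes were chosen with earlier results of these data known. Named were the 11 processing and release genes, pdf-1 and pdf-2, bound members, the 12 strongest pooled promoter peaks, members with an optimal summit inside the gene or as the nearest gene upstream, nlp-40, nlp-29, nlp-31, nlp-12, flp-1 and flp-18, and up to 3 genes in each other list. Genes named for sequence or neighbouring peaks were chosen after their values were seen. capr-1 and opt-2 were not found as symbols. On simulated summits, the promoter code found 200 of 200 planted inside and 0 planted 1 bp outside. Alternatives changed the window, gene models, overlap rule, list length and replicate. Python 3.11.15, numpy 2.4.6, pandas 2.3.3, scipy 1.17.1 and matplotlib 3.10.9 were used.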

Additional observations from a re-analysis of the deposited data

How the results depend on the processing

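Members bound at the promoter numbered 2 in the main reading, 1 with a promoter from 500 bp upstream to 100 bp downstream, 11 with 2000 bp upstream, 1 with the strongest 1000 peaks and, in a setting chosen after seeing the data, 17 with 5000 bp upstream. Bound peptide precursors numbered 0, and 8 with 2000 bp, 13 with 5000 bp, and 1 (nlp-64) where any overlap of the peak counted. Processing and release genes numbered 2, and 1 with the 500 bp window, 1 with the strongest 1000 peaks and 4 with 5000 bp. The shares of all genes were 12.5% at 500 bp, 20.9% at 2000 bp, 31.4% at 5000 bp and 2.88% with the strongest 1000 peaks. The shares of all members and of peptide precursors were below these in all 4 settings. With the strongest 1000 peaks, the exact interval for 1 of 115 members is 0.0220 to 4.75%. With 0 bound peptide precursors the interval reaches 3.48%. Both intervals hold the 2.88% of all genes, so a lower share was not clear in that setting. The share of the processing and release genes was below that of all genes at 500 bp (9.09%). It was above that of all genes at 2000 bp (27.3%), at 5000 bp (36.4%) and with the strongest 1000 peaks (9.09%). Pooled promoter summits went from 35 to 54 members with 2000 bp (47%, against 57.3% of all genes). TGATAAG went from 16 to 35 members with 2000 bp (30.4%, against 36.4%) and to 6 with 500 bp (5.22%, against 14.4%). The exact interval for 35 of 115 members is 22.2 to 39.7%, which holds the 36.4% of all genes. So a lower TGATAAG share of members was not clear with 2000 bp. A wider window holds more of everything. The nlp-40 intron peak was lost (0 members) with both shorter lists and with peaks that overlapped both replicates.

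Each replicate alone, as its strongest 5560 peaks, gave 2 to 5 bound members, 0 to 2 bound peptide precursors (nlp-101 and nlp-62 without replicate 1), 2 to 3 processing and release genes, 26 to 30 members with a relaxed promoter summit in the whole list and 1 to 3 with a summit inside the gene. The shares of all genes were 13.8% bound and 7.65% inside without replicate 1, and 16.6% and 5.82% without replicate 2, and the 3 processing and release genes without replicate 1 (27.3%) were above 13.8%. The cause was not tested. No paired analysis was possible because the design has 1 group. Depth, the control library and the scale of the signal limit all counts, and with 2 replicates a weak site seen in 1 of them cannot be told apart from noise.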
